A study of Mus musculus with 9 samples.

Results

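The genes described here encode late neutrophil granule proteins, namely Camp, Ngp, Ltf, Lcn2, Mmp8, Mmp9, Fcnb, Pglyrp1, Chil3 and Cd177. They were chosen by gene symbol, and all 10 were found among the 55274 gene identifiers of each library. Their RNA was measured in 9 RNA-seq libraries of cultured mouse bone marrow cells, with 3 libraries in each of 3 groups. The NRASG12D cells carried a RAS protein locked in the active state by a point mutation, expressed from a retroviral vector with a blue fluorescent protein. The NUP98-NSD1 cells carried a leukemia fusion of the nucleoporin NUP98 and the histone methyltransferase NSD1, expressed from a retroviral vector with a green fluorescent protein. The NUP98-NSD1+NRASG12D cells carried both vectors. The marrow of all groups came from female C57BL/6J mice aged 6 to 8 weeks that had received 5-fluorouracil at 150 mg/kg, and it was harvested 4 days later. The cells were stimulated for 48 h with interleukin-6, interleukin-3 and stem cell factor, transduced, expanded and sorted by fluorescence. Expression was driven by the viral promoter rather than by that of Nras or Nup98, and no group with empty vector was analysed here. The sources do not say whether the 3 libraries of a group came from separate cultures or animals, so p-values measure the spread between these samples, which may be technical.

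Neutrophils make their granules in sequence as they mature. Azurophil granules come first, in promyelocytes, and hold myeloperoxidase and serine proteases such as neutrophil elastase. Specific granules follow in myelocytes and metamyelocytes, with lactoferrin, lipocalin and cathelicidin, and gelatinase granules are formed in band cells. Because each protein is sorted to the granule that is being built when its gene is active, the RNA of these genes is widely read as a clock of neutrophil maturation. The transcription factor C/EBP epsilon is known to be needed for the specific granule program.

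Each value is an FPKM, the fragments of a gene per kilobase of its transcript, scaled to the mapped fragments. The depth, estimated from the steps between low FPKM values, was 22500000 to 35500000 fragments per library. For the 10 genes, 3 fragments corresponded to at most 0.176 FPKM in any library, a limit that covers counting error only. Nras read 354, 479 and 348 FPKM in the NRASG12D libraries, 50.3, 47.7 and 51.2 in NUP98-NSD1 and 245, 262 and 701 in NUP98-NSD1+NRASG12D, so the 2 groups labelled with the vector stood above the group without it. Markers of mast cells were abundant in NRASG12D libraries, where the 9 markers other than Cpa3 summed to 36190 to 38297 FPKM. They summed to 15700 to 20950 FPKM in NUP98-NSD1 and to 505 to 2892 FPKM in NUP98-NSD1+NRASG12D. The comparisons with NRASG12D are therefore also comparisons with cultures rich in mast cell RNA. The same holds for NUP98-NSD1+NRASG12D versus NUP98-NSD1, where the NUP98-NSD1 cultures were the richer in it. Cpa3, a mast cell carboxypeptidase, was listed at 0 in the 3 NRASG12D libraries, so an exact 0 in these tables can be a failed estimate. Fits against NRASG12D nevertheless entered each listed 0 as a value. In that group Camp, Ltf and Fcnb had 3 listed 0s, Cd177 had 2, and Ngp, Lcn2 and Chil3 had 1 each. In bulk samples, a smaller number of cells of a type and less RNA per cell cannot be told apart.

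Camp, on chromosome 9 at 109847379 to 109849617 of GRCm38, encodes the cathelicidin precursor, which is stored in specific granules and cut into an antimicrobial peptide. It was listed at 0 in the 3 NRASG12D libraries. In NUP98-NSD1 libraries it read 23.4, 7.74 and 5.17 FPKM, and in NUP98-NSD1+NRASG12D libraries 31.6, 68.4 and 61.5 FPKM. The groups did not overlap, although replicate 1 of NUP98-NSD1+NRASG12D lay only 1.35-fold above the highest NUP98-NSD1 library. The mean was 4.45-fold higher with both oncogenes than with NUP98-NSD1 alone, and on the log2(FPKM + 1) scale Camp differed by 2.25 (SE 0.54, adjusted p = 0.0496, limma). This call lay at the threshold and was lost in 9 of 13 alternative fits, with adjusted p from 0.0135 to 0.188 over the 13.

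Ngp (chromosome 9, 110419747 to 110423012) encodes neutrophilic granule protein, a relative of the cystatins. It read 0.111, 0.453 and 0 FPKM in NRASG12D, 303, 157 and 75.0 in NUP98-NSD1, and 325, 1734 and 2216 in NUP98-NSD1+NRASG12D. It was the most abundant of the 10 genes in replicates 2 and 3 of NUP98-NSD1+NRASG12D, while replicate 1 of that group was only 1.07-fold above the highest NUP98-NSD1 library. The difference between the last 2 groups was 2.81 on the log2 scale (SE 0.81, adjusted p = 0.0818), which did not pass the threshold of 0.05 although the mean was 7.98-fold higher.

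Ltf (chromosome 9, 111019271 to 111042767) encodes lactoferrin, the iron-binding protein that defines specific granules. It was listed at 0 in the 3 NRASG12D libraries and read 27.9, 11.3 and 15.4 FPKM in NUP98-NSD1. In NUP98-NSD1+NRASG12D it read 34.0, 297 and 274 FPKM, so that replicate 1 lay close to the NUP98-NSD1 libraries and the other two far above them. The mean was 11.1-fold higher with both oncogenes, and the log2 difference of 2.98 (SE 0.83, adjusted p = 0.0732) did not pass.

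Lcn2 (chromosome 2, 32384633 to 32388252) encodes lipocalin 2, which withholds iron from bacteria by binding their siderophores. It read 0, 0.217 and 0.144 FPKM in NRASG12D and 35.0, 20.5 and 29.8 in NUP98-NSD1. In NUP98-NSD1+NRASG12D it read 87.6, 149.8 and 424 FPKM, each above the NUP98-NSD1 libraries by at least 2.5-fold. It rose by 2.63 on the log2 scale (SE 0.55, adjusted p = 0.0334) between these groups.

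3 members encode proteins that bind microbial or sugar surfaces. Fcnb (chromosome 2, 28076378 to 28084885) encodes ficolin B, a lectin that can start the complement lectin pathway. It was listed at 0 in the 3 NRASG12D libraries, read 32.8, 20.8 and 7.72 FPKM in NUP98-NSD1, and was nearly constant at 94.2, 84.1 and 91.4 FPKM in NUP98-NSD1+NRASG12D. It rose by 2.29 on the log2 scale (SE 0.46, adjusted p = 0.0300) when NRASG12D was added to NUP98-NSD1. Pglyrp1 (chromosome 7, 18871331 to 18890459) encodes a peptidoglycan recognition protein that binds bacterial cell walls. Its levels were 0.0890, 0.446 and 0.128 FPKM in NRASG12D, where the first and the last lay below the level of 3 fragments, 96.4, 87.6 and 29.7 in NUP98-NSD1, and 179.9, 236 and 236 in NUP98-NSD1+NRASG12D. The last 2 groups did not overlap, and their log2 difference of 1.76 (SE 0.44, adjusted p = 0.0557) lay just outside the threshold.

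Chil3 (chromosome 3, 106147554 to 106167564) encodes a chitinase-like lectin, also known as Ym1, that has lost enzyme activity. It read 0.0286, 0.0486 and 0 FPKM in NRASG12D, each below the level of 3 fragments. It was high in NUP98-NSD1 at 267, 255 and 155 FPKM, and read 142, 537 and 733 FPKM in NUP98-NSD1+NRASG12D. Chil3 was the only one of the 10 genes for which these groups overlapped, since replicate 1 of NUP98-NSD1+NRASG12D was lower than the 3 NUP98-NSD1 libraries. The log2 difference was 0.80 (95% interval -0.63 to 2.23, adjusted p = 0.501), an interval that includes a fall, no difference and a rise. Of its 50-base stretches, 26.9% also occur in Chil4 or Gm6522, so reads could be split between these genes. Chil4 itself had at most 0.0328 FPKM in NRASG12D. It read 7.27 to 11.7 FPKM with NUP98-NSD1 and 6.28 to 31.7 with both oncogenes, and its log2 difference between the last 2 groups was 0.70 (adjusted p = 0.517).

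Mmp8 (chromosome 9, 7558456 to 7568485) encodes neutrophil collagenase, a protease of specific granules. It read 0.367, 3.90 and 0.504 FPKM in NRASG12D and was the only member that reached 1 FPKM in a library of that group. It read 169, 71.6 and 131 FPKM in NUP98-NSD1 and 471, 502 and 370.4 FPKM in NUP98-NSD1+NRASG12D. The libraries with both oncogenes lay close together and all at least 2.2-fold above the NUP98-NSD1 libraries, and Mmp8 rose by 1.92 on the log2 scale (SE 0.33, adjusted p = 0.0193), the lowest adjusted p among the 10 genes in this comparison.

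Mmp9 (chromosome 2, 164940780 to 164955850) encodes gelatinase B, the namesake enzyme of the gelatinase granules, and was the least expressed member wherever the others were high. It read 0.122, 0.0536 and 0.131 FPKM in NRASG12D, 0.804, 0.300 and 0.880 in NUP98-NSD1, and 1.14, 10.3 and 7.25 in NUP98-NSD1+NRASG12D. It passed the filter on low values only through the 3 libraries of the last group, in which it is high. The 3 groups were ordered without overlap, but replicate 1 with both oncogenes stood only 1.3-fold above the highest NUP98-NSD1 library, and the log2 difference of 1.83 (SE 0.59, adjusted p = 0.110) did not pass.

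Cd177 (chromosome 7, 24743983 to 24760311) encodes a surface protein of neutrophils that is also kept in specific granules. It read 0, 0.0632 and 0 FPKM in NRASG12D, 7.67, 3.56 and 3.45 in NUP98-NSD1, and 15.9, 59.3 and 227 in NUP98-NSD1+NRASG12D. The last group spanned 14.3-fold from its lowest to its highest library, the widest range of the 10 genes. Its mean was 20.6-fold that of NUP98-NSD1, the largest ratio among the members, while the log2 difference of 3.45 (SE 0.87, adjusted p = 0.0573) did not pass. Of the 50-base stretches of Cd177, 5.51% are shared with Lypd11 or Lypd10, against 2.67% of Pglyrp1 with other genes and 0% for the 7 members other than these and Chil3.

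**Figure D1:**
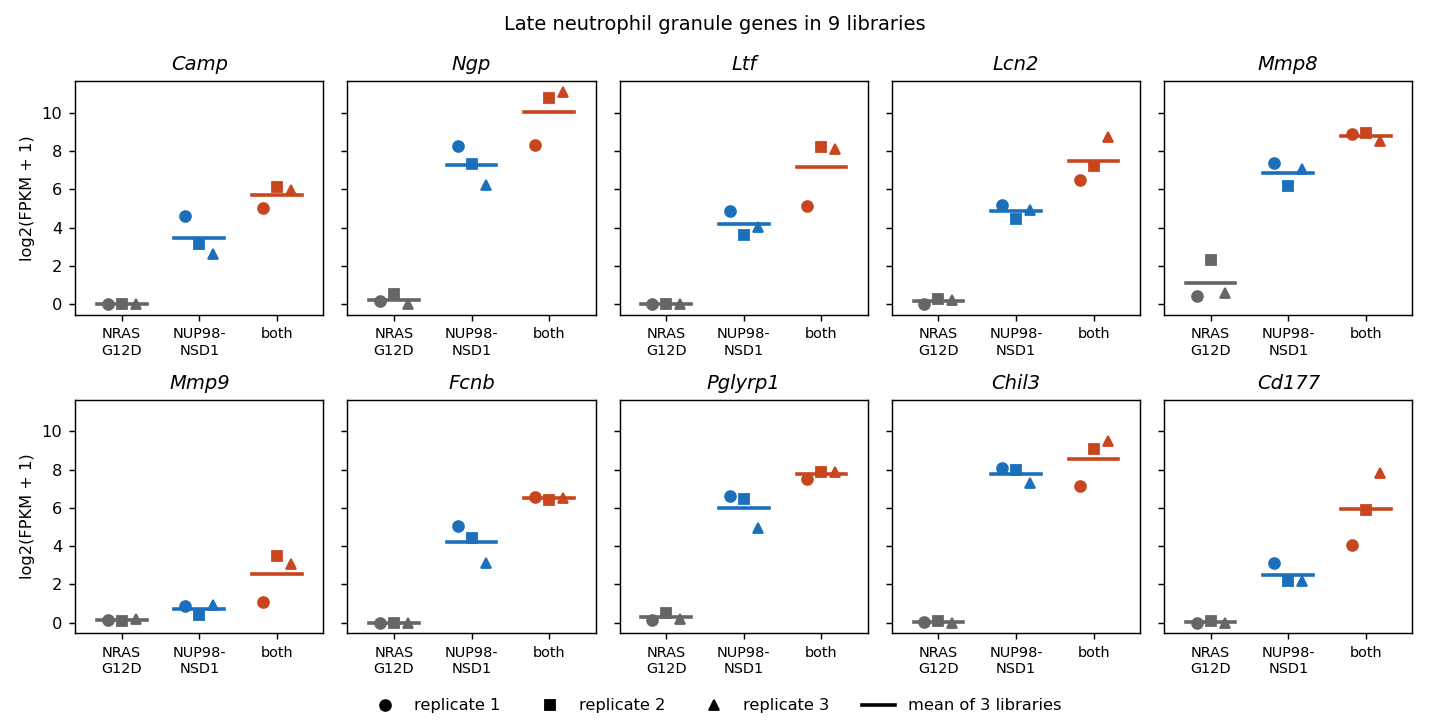
Levels of the 10 late granule genes on the log2(FPKM + 1) scale, 1 panel per gene; the horizontal axis gives the group, and "both" stands for NUP98-NSD1+NRASG12D. Each point is 1 library, its shape gives the replicate number and the line is the mean of 3 libraries. The NRASG12D points lie near 0 except Mmp8 in replicate 2 (3.90 FPKM), and the circles of replicate 1 are the lowest points with both oncogenes for 8 of the 10 genes.

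The late granule genes read higher with NUP98-NSD1 alone than with NRASG12D, where their values were 0 or low. All 10 passed the test in the NUP98-NSD1 versus NRASG12D comparison and were higher in NUP98-NSD1. The call of Mmp9 was lost in 9 of 13 alternative fits, with adjusted p up to 0.524, and its difference turned to -0.14 under quantile normalization. The members passed the filter on low values through libraries with NUP98-NSD1, in which they are high, so their counts against NRASG12D are given as a description. Over all 13493 genes tested, 42.2% were called higher, so a rise in itself was common in this comparison. The size was less so, with a median log2 difference of 4.45 over the members, from 0.57 for Mmp9 to 7.75 for Chil3, beside 0.27 over all genes tested. 9 of the 10 reached a difference of 2, against 3.25% of all genes. These counts and the median include Camp, Ltf and Fcnb, whose 3 NRASG12D values are listed 0s that can be failed estimates. Chil3 (7.75, SE 0.20, adjusted p = 5.64e-06), Ngp (7.04, SE 0.46, adjusted p = 0.000155), Mmp8 (5.77, SE 0.53, adjusted p = 0.000536) and Pglyrp1 (5.73, SE 0.42, adjusted p = 0.000233) differed most on this scale. Ratios of means could be formed for the 2 members that lay above the level of 3 fragments in every NRASG12D library, and came to 77.7 for Mmp8 and 6.47 for Mmp9. The small log2 difference of Mmp9 (0.57, SE 0.18, adjusted p = 0.0307) understates its ratio, because the added 1 FPKM exceeds its level in both groups. The scale of all genes also mattered here. The share of higher among called genes was 80.9% on the deposited values, 52.3% after median-ratio scaling and 43.2% after quantile normalization, and the median over all genes fell from 0.272 to 0.0116 and -0.0678.

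The late granule genes also read higher in cells with both oncogenes than in NRASG12D cells. All 10 were called higher in NUP98-NSD1+NRASG12D than in NRASG12D, where 24.2% of the genes tested were. The median log2 difference of the members was 7.24, from 2.41 for Mmp9 (SE 0.58, adjusted p = 0.0171) to 9.84 for Ngp, beside 0.23 over all genes, and 10 of 10 reached a difference of 2, against 6.26% of all genes. Both counts include Mmp9, which passed the filter only through this group of NUP98-NSD1+NRASG12D libraries and whose call was lost in 5 of 13 alternative fits, 4 of them among the 6 that leave out a library. The counts and the median also include Camp, Ltf and Fcnb, with their 3 listed 0s in NRASG12D. The ratio of means was 281 for Mmp8 and 60.9 for Mmp9. In these comparisons with the same NRASG12D libraries every member separated the groups, which 50.7% of all genes did in the direction of NUP98-NSD1 and 38.7% in that of NUP98-NSD1+NRASG12D. Under other scalings the share of higher calls went from 63.1% to 53.1% and 41.3%. The exact permutation test of a single gene gave p = 0.1 for each member in both comparisons, the smallest that 3 libraries against 3 allow.

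The addition of NRASG12D to NUP98-NSD1 was the comparison that divided the members. All 10 had a higher mean with both oncogenes, by 2.08-fold for Chil3 to 20.6-fold for Cd177, and 4 passed the test, namely Camp, Lcn2, Mmp8 and Fcnb. Over all genes 2.30% were called higher. The median log2 difference was 2.27 over the members and -0.06 over all genes tested, and 6 of 10 reached a difference of 2, against 1.20% of all genes. The groups did not overlap for 9 members, in each case with the 3 NUP98-NSD1+NRASG12D libraries on top, and 11.6% of all genes were ordered in this way. The 9 and the median include Mmp9, which passed the filter on low values only through the NUP98-NSD1+NRASG12D libraries, in which it is high. Its part in them is a description. Exact permutation p-values were 0.1 for these 9 and 0.4 for Chil3. The members with the largest differences were not those that passed. Cd177, Ltf and Ngp differed most, and the spread between their NUP98-NSD1+NRASG12D libraries was wide, with an SD of 1.88, 1.75 and 1.51 on the log2 scale. For Fcnb, Pglyrp1 and Mmp8 that SD was 0.08, 0.23 and 0.23.

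**Figure D2:**
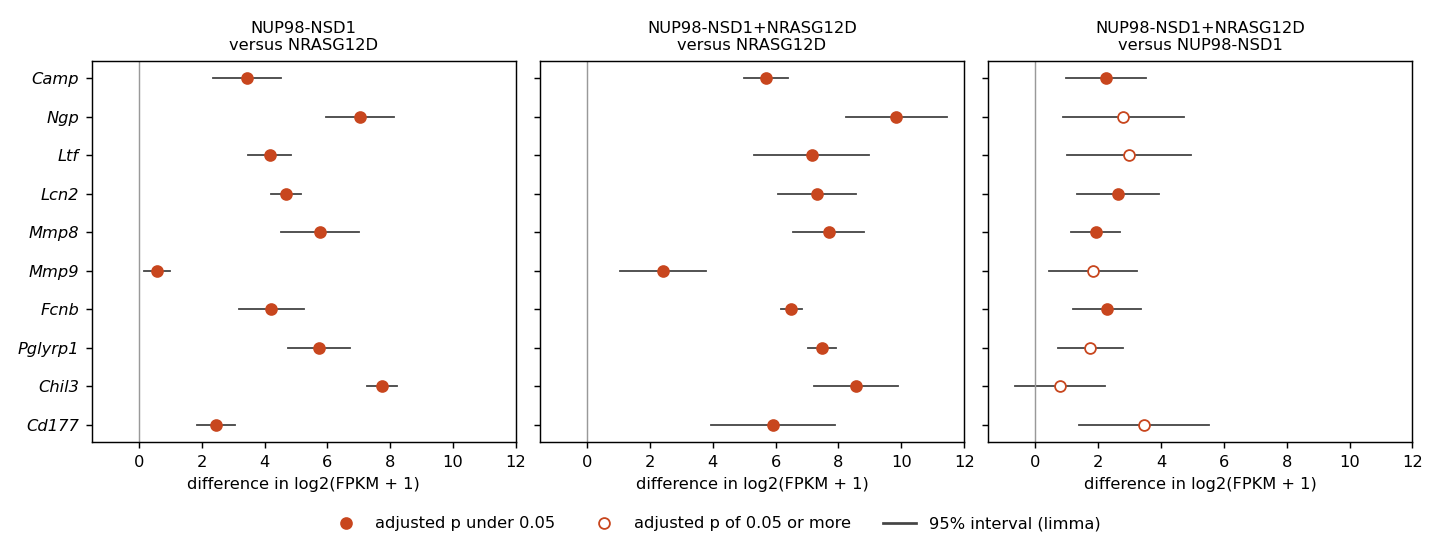
Differences in mean log2(FPKM + 1) of the 10 genes in the 3 comparisons, with 95% intervals from limma on the horizontal axis; filled points have an adjusted p under 0.05. Against NRASG12D the 10 intervals lie above 0 in both panels, and in NUP98-NSD1+NRASG12D versus NUP98-NSD1 4 points are filled and the interval of Chil3 alone crosses 0.

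Replicate 1 of NUP98-NSD1+NRASG12D stood apart from replicates 2 and 3 in these genes. It was the lowest of its group for 8 of the 10 members, with Fcnb and Mmp8 as the exceptions. The ratio of the highest to the lowest library was 14.3 for Cd177, 9.0 for Mmp9, 8.72 for Ltf, 6.83 for Ngp, 5.17 for Chil3 and 4.84 for Lcn2. It was 2.16 for Camp, 1.35 for Mmp8, 1.31 for Pglyrp1 and 1.12 for Fcnb. Without replicate 1, 9 of the 10 members were called higher in NUP98-NSD1+NRASG12D than in NUP98-NSD1, all but Pglyrp1. This library is singled out for its low levels of these same genes, so the count, which includes Mmp9, is a description. In that fit 6.48% of all genes were called higher, and the genes called in either direction rose from 1162 to 2509. There the log2 difference was 4.39 for Cd177, 3.99 for Ltf, 3.67 for Ngp and 1.51 for Chil3. Without replicate 2 or replicate 3 of the same group, or without replicate 2 or 3 of NUP98-NSD1, 1 member was called, and 3 were without replicate 1 of NUP98-NSD1. Mmp8 was called in 4 of these 6 fits, Fcnb in 3, Camp and Lcn2 in 2 each, and Pglyrp1 in 0 by limma, although its unadjusted p with 6 libraries was 0.00536. No fit changed the direction of a member in this comparison.

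**Figure D3:**
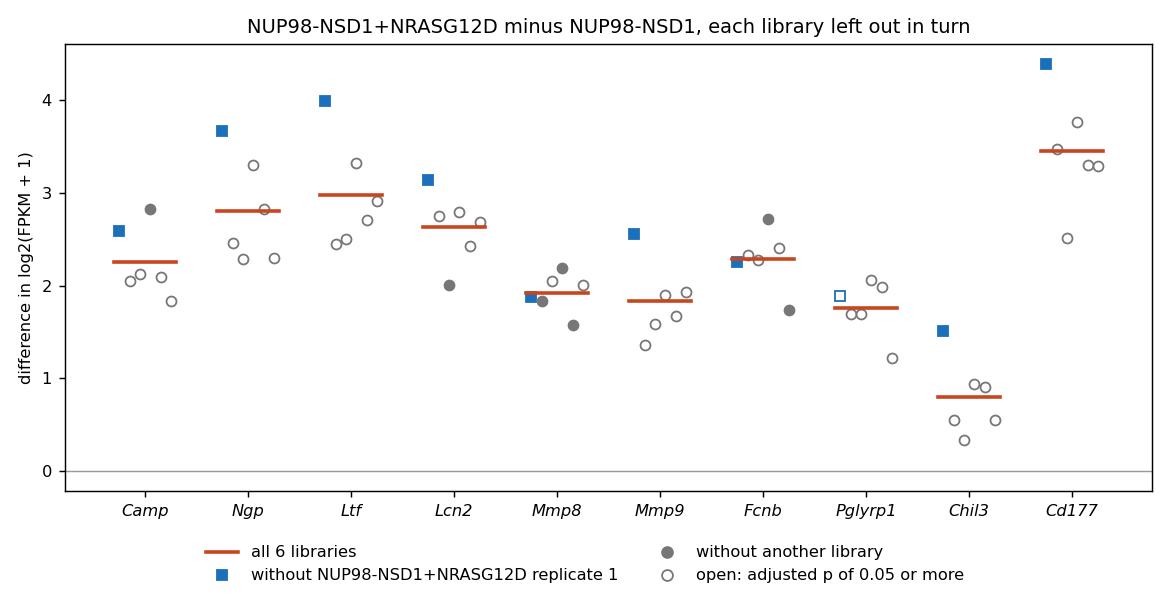
Differences in mean log2(FPKM + 1) between NUP98-NSD1+NRASG12D and NUP98-NSD1 for each gene. The red line uses 6 libraries, each point leaves out 1 library, squares leave out replicate 1 of NUP98-NSD1+NRASG12D, and open points have an adjusted p of 0.05 or more. The squares of Cd177, Ltf and Ngp lie highest, at 4.39, 3.99 and 3.67, and all points are above 0.

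Among NUP98-NSD1 libraries the order was different, and replicate 1 had the highest level of 9 of the 10 genes. Mmp9 was the exception, with 0.880 FPKM in replicate 3 and 0.804 in replicate 1. Replicate 3 was lowest for 6 genes and replicate 2 for 4. The summed FPKM of the 10 genes was 963, 636 and 454 in NUP98-NSD1 and 1382, 3677 and 4641 in NUP98-NSD1+NRASG12D, after 0.718, 5.19 and 0.908 in NRASG12D. As a share of all FPKM in the library, this was 0.151%, 0.101% and 0.0764% with NUP98-NSD1 and 0.205%, 0.602% and 0.687% with both oncogenes. Ngp and Chil3 led the sum in most libraries, but its makeup differed. Chil3 held 27.7%, 40.1% and 34.2% of the summed level in NUP98-NSD1 and 10.3%, 14.6% and 15.8% in NUP98-NSD1+NRASG12D. Ngp held 47.2% and 47.7% in replicates 2 and 3 with both oncogenes, against 23.5% in replicate 1 and 16.5% to 31.5% in NUP98-NSD1. In replicate 1 with both oncogenes Mmp8 led with 34.1%.

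**Figure D4:**
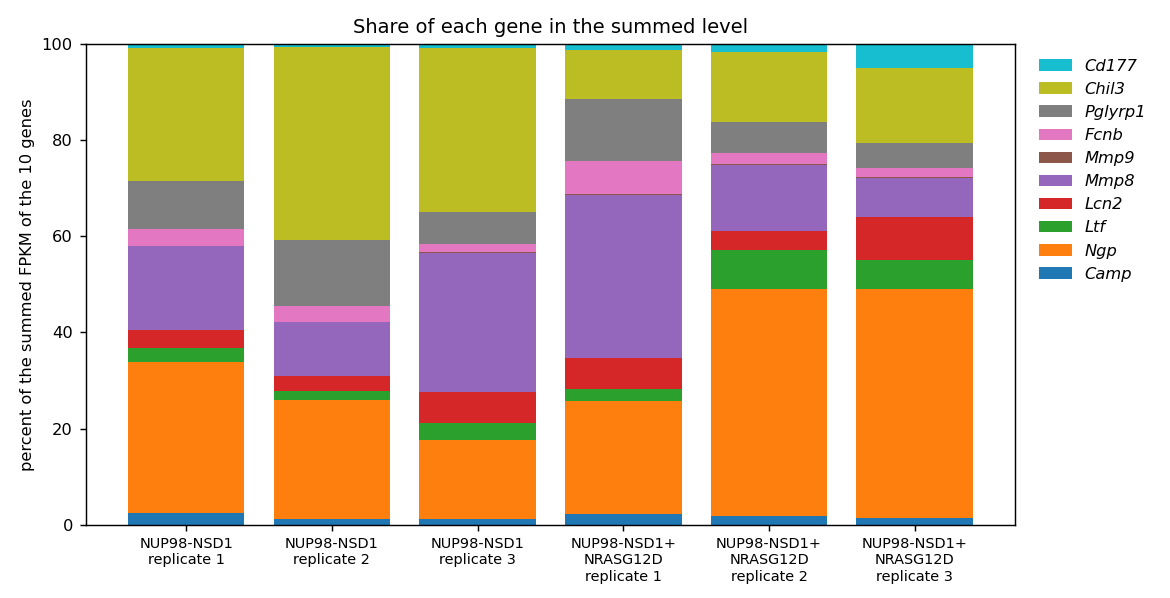
Share of each gene in the summed FPKM of the 10 genes, in percent, for the 3 NUP98-NSD1 and the 3 NUP98-NSD1+NRASG12D libraries. Ngp takes 47.2% and 47.7% of the bars of replicates 2 and 3 with both oncogenes, and Chil3 takes 27.7% to 40.1% of the NUP98-NSD1 bars.

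The 5 genes listed here as azurophil, read as marks of the earlier stage, did not follow the same order of libraries. The summed FPKM of Mpo, Elane, Prtn3, Ctsg and Ms4a3 was 29.2 to 34.9 in NRASG12D, 5492, 5577 and 1294 in NUP98-NSD1, and 13132, 3916 and 4296 in NUP98-NSD1+NRASG12D. Thus replicate 1 with both oncogenes, low in most late granule genes, had the highest sum of the early ones. The ratio of late to azurophil sums was 0.175, 0.114 and 0.351 in NUP98-NSD1. It was 0.105 in replicate 1 and 0.939 and 1.08 in replicates 2 and 3 of NUP98-NSD1+NRASG12D, so the groups overlapped in this ratio. All 5 azurophil genes were called higher than in NRASG12D in both comparisons, beside 42.2% and 24.2% of all genes. Elane, for instance, rose by 8.83 with NUP98-NSD1 (SE 0.79) and by 10.40 with both oncogenes (SE 0.56). Between NUP98-NSD1+NRASG12D and NUP98-NSD1, limma called 0 of the 5 and 0 had an unadjusted p under 0.05, with log2 differences from -0.49 for Mpo to 1.57 for Elane. Mpo, encoding myeloperoxidase, read 5140, 1463 and 131 FPKM with both oncogenes. Elane, Prtn3, Ctsg and Ms4a3 were instead lowest in replicate 2 of that group. Prtn3 read 2499, 726 and 1212 FPKM there, and Ctsg 1048, 438 and 706 FPKM. 0 were called without replicate 1, and whether late and azurophil genes differ in their response was not tested.

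**Figure D5:**
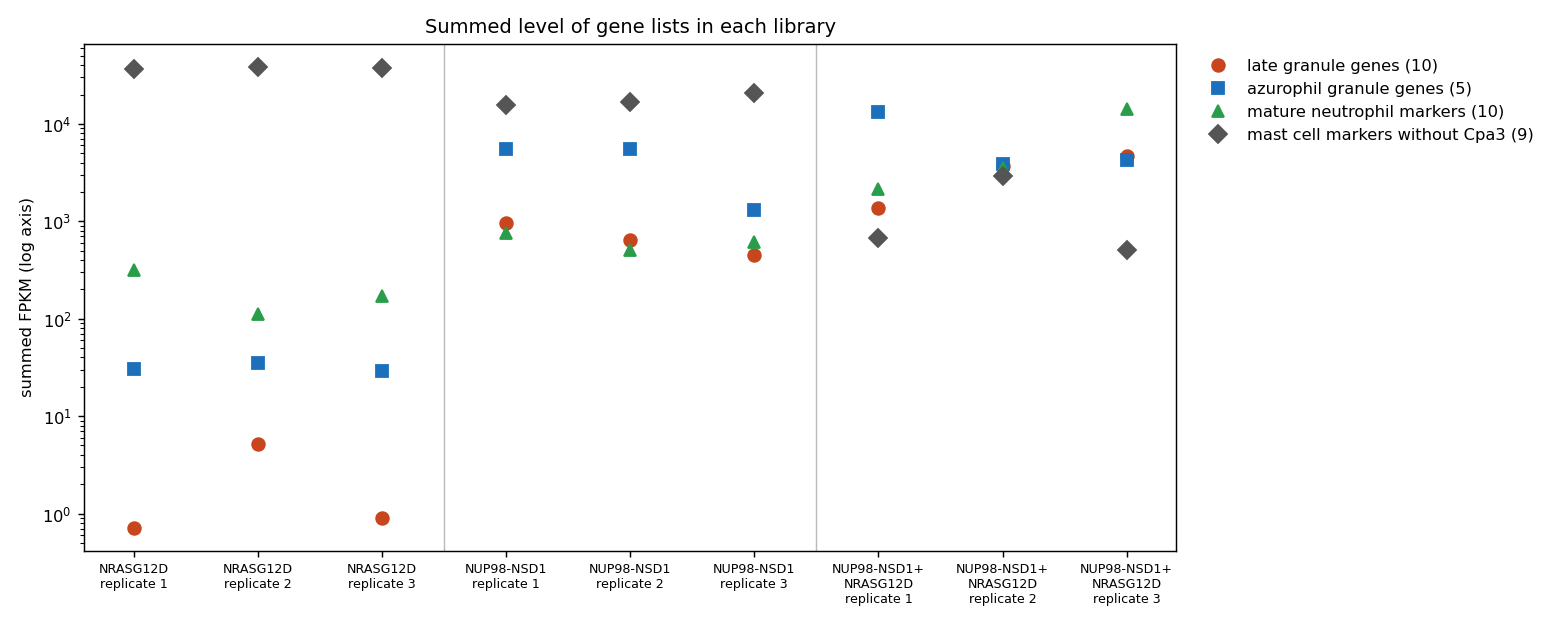
Summed FPKM per library, on a log axis, of the 10 late granule genes, 5 genes listed as azurophil, 10 mature neutrophil markers and 9 mast cell markers other than Cpa3. In replicate 1 of NUP98-NSD1+NRASG12D the azurophil sum (13132) is far above the late granule sum (1382), while in replicates 2 and 3 the sums lie side by side.

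Other proteins of the specific, gelatinase and secretory compartments were read from a list of 16 genes, of which 15 were in the tables and 13 passed the filter on low values. With NUP98-NSD1, 10 of the 13 were called higher than in NRASG12D, beside 42.2% of all genes tested, and 2 lower, Cd63 and Adam8. With both oncogenes 10 were higher, beside 24.2% of all genes, and 1, Cd63, lower. Between NUP98-NSD1+NRASG12D and NUP98-NSD1, 3 were called higher, beside 2.30% of all genes, and 1 lower, with a median difference of 1.5. The 3 were Itgam, the CD11b integrin chain (2.49, SE 0.53, adjusted p = 0.0363), Lyz2, lysozyme (2.39, SE 0.47, adjusted p = 0.0280), and Cybb, the large chain of the phagocyte NADPH oxidase (1.81, SE 0.36, adjusted p = 0.0300). These 3 are also made by monocytes. Cd63, a tetraspanin of azurophil and mast cell granules, fell by 1.65 (SE 0.36, adjusted p = 0.0386). Of the 13493 genes tested, 851 were called lower in this comparison. Against NRASG12D, 1347 were called lower with NUP98-NSD1 and 1907 with both oncogenes. Without replicate 1 of NUP98-NSD1+NRASG12D, 7 of the 13 were called higher, beside 6.48% of all genes. That fit was chosen for this list after the data had been seen, so its count is a description.

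Of 10 regulators of granulocyte maturation, 9 passed the filter. Relative to NRASG12D, 8 of these were called higher with NUP98-NSD1 and 8 with both oncogenes, where Runx1 was called lower. Over all genes tested, 42.2% and 24.2% were called higher in these comparisons. Cebpe, the factor of the specific granule stage, read 0, 0.272 and 0 FPKM in NRASG12D, 82.7, 64.0 and 15.8 in NUP98-NSD1, and 133, 94.8 and 136 in NUP98-NSD1+NRASG12D. Its 3 groups did not overlap, and it rose by 5.38 with NUP98-NSD1 (SE 0.55, adjusted p = 0.000825) and by 6.80 with both oncogenes (SE 0.20, adjusted p = 1.35e-05) relative to NRASG12D. The difference of 1.42 between the last 2 groups (SE 0.58, adjusted p = 0.187) did not pass. Cebpb was the only regulator called higher there (1.04, SE 0.18, adjusted p = 0.0211), and Runx1, a factor of early hematopoiesis, fell by 1.23 (SE 0.26, adjusted p = 0.0347). Of 12 partners and inhibitors of the granule proteins, only 4 passed the filter, and against NRASG12D 3 of these were called higher and 1, Pecam1, lower in both comparisons. Lrp1, a receptor that takes up lactoferrin, and Trem1, a receptor that binds peptidoglycan recognition protein, were called higher with both oncogenes than with NUP98-NSD1, by 2.11 (SE 0.41, adjusted p = 0.0284) and 2.03 (SE 0.30, adjusted p = 0.0122). Timp1, an inhibitor of Mmp8 and Mmp9, reached at most 0.642 FPKM in the 9 libraries. Timp2, of the same list, reached at most 0.377 FPKM in NRASG12D and 0.264 in NUP98-NSD1. It read 0.324, 6.42 and 3.21 FPKM with both oncogenes and did not pass the filter.

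Cell type markers also differed between the groups, in both directions. Neutrophil, monocyte and macrophage markers mostly rose with the late granule genes, while most mast cell markers fell. The sum of mature neutrophil markers was 111 to 313 FPKM with NRASG12D, mostly from Il1r2. It was 502 to 757 FPKM with NUP98-NSD1 and 2167, 3497 and 14080 FPKM with both oncogenes. Of the 10 markers, 6 were called higher than in NRASG12D with NUP98-NSD1 and 7 with both oncogenes. Over all genes tested, 42.2% and 24.2% were called higher in these comparisons. Of the 10 neutrophil markers, 3 were called higher with both oncogenes than with NUP98-NSD1, namely Cxcr2, S100a8 and S100a9, beside 2.30% of all genes. Without replicate 1 of NUP98-NSD1+NRASG12D, a fit chosen for these markers after the data had been seen, 9 were, beside 6.48% of all genes. Retnlg, a marker of the most mature neutrophils, was listed at 0 in NRASG12D, read 0.660, 0 and 0.718 FPKM in NUP98-NSD1, and 1.45, 19.5 and 356 with both oncogenes. Ly6g, the neutrophil surface antigen, read 2.53, 2.45 and 3.24 FPKM in NRASG12D, 3.10, 3.67 and 2.10 in NUP98-NSD1, and 3.76, 14.0 and 59.6 with both oncogenes. Markers of monocytes and macrophages, 9 of 10 in the tables, summed to 44.3 to 60.1 FPKM with NRASG12D, 504 to 949 with NUP98-NSD1 and 1831 to 4704 with both oncogenes. All 9 were called higher than in NRASG12D in both comparisons, and 2 of them, Ly6c2 and Cd14, in NUP98-NSD1+NRASG12D versus NUP98-NSD1. Of the mast cell markers, 9 of 10 were called lower there, beside 851 of the 13493 genes tested. Against NRASG12D, 5 were lower and 3 higher with NUP98-NSD1, where 1347 of the genes tested were called lower. With both oncogenes 8 were lower and 2 higher, where 1907 of the genes tested were called lower. Cpa3, with its listed 0, was among the higher in both. Other markers tested were 3 basophil, 4 eosinophil, 5 erythroid and megakaryocyte and 1 lymphoid. In NUP98-NSD1+NRASG12D versus NUP98-NSD1 the only calls of these were Cd200r3, Il5ra and Itga2b, each lower. With NUP98-NSD1, 2, 3, 4 and 1 of them, in that order, were called higher than in NRASG12D, and Cd200r3 and Itga2b lower. With both oncogenes 1, 2, 1 and 1 were called higher than in NRASG12D, and Cd200r3, Il5ra and Itga2b lower. The part of these shifts in the levels of the late granule genes was not tested.

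Since the members moved together between groups, the bases before their starts are shown. RefSeq gave promoters on GRCm38.p6 for 9 of the 10 genes, all but Mmp9. The windows below hold the bases upstream of the RefSeq start that lie in no annotated exon. They were searched on both strands for TTNNGNAA, the letters bound by C/EBP factors, GAGGAA, bound by PU.1, and TATAAA, and capitals mark each match. The C/EBP letters occurred in 7 of the 9 full windows of 250 bases, beside 36.8% of 32851 mouse promoters of the same length, the PU.1 letters in 5 of 9 beside 23.3%, and TATAAA in 1 of 9 beside 12.4%. The full windows can include annotated exons, with 161 such bases for Camp and 197 for Lcn2. Camp had 0 matches, and Lcn2 had 1 C/EBP and 1 PU.1 match, which are in these counts. No match of one motif overlapped a match of another in the 5 windows printed. Ngp, Ltf and Mmp8 are shown as the most abundant member with both oncogenes, the lactoferrin gene and the member with the lowest adjusted p, and Chil3 and Cd177 as the members with the smallest and the largest difference between NUP98-NSD1+NRASG12D and NUP98-NSD1.
Ngp, chr9:110419558-110419746, plus strand: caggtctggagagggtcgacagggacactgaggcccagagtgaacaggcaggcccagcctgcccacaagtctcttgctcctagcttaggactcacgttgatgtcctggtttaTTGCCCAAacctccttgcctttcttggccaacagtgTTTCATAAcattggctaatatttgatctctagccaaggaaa
Ltf, chr9:111019042-111019270, plus strand: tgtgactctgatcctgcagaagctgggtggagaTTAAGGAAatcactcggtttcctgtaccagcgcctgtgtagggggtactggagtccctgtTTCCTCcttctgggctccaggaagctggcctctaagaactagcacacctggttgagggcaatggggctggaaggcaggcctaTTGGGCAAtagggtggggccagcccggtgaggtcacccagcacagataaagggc
Mmp8, chr9:7558179-7558428, plus strand: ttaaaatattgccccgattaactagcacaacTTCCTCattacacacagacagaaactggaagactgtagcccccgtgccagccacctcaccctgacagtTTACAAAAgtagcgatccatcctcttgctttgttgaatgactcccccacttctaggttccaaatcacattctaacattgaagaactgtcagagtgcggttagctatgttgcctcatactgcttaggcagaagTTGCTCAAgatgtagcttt
Chil3, chr3:106167565-106167814, minus strand: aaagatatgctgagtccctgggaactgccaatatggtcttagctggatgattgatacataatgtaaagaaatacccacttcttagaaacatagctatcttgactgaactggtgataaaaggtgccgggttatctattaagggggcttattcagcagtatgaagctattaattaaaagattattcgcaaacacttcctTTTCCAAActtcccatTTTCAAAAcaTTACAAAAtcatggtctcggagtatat
Cd177, chr7:24760312-24760561, minus strand: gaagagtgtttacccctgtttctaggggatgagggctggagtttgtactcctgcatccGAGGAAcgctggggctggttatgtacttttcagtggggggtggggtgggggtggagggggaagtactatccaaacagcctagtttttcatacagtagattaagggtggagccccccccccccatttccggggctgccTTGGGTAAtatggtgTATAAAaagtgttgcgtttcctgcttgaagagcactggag
Ngp has a C/EBP match 138 bases and another 102 bases before its RefSeq start, and 1 more at 11 bases lies outside the printed stretch. Chil3 has 3 such matches within its last 53 bases. Cd177, the only one of the 9 genes with TATAAA, has it 40 bases before the start and a C/EBP match at 55. A match describes these letters and does not show binding.

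Genes with the most similar pattern were ranked by Pearson correlation of log2(FPKM + 1) over the 9 libraries, which is a description, since the libraries share 3 groups. F7 and Ebi3 were closest to the mean of the 10 genes, each with r = 0.998, followed by Cd44 (0.996) and S100a9 (0.995). F7, encoding coagulation factor VII, had at most 0.0316 FPKM in NRASG12D, 19.2 to 43.3 FPKM with NUP98-NSD1 and 46.0, 135 and 224 FPKM with both oncogenes. Chil3 was closest to Hoxa10 (0.995), which read 17.9, 15.2 and 11.3 FPKM in NUP98-NSD1 and 13.3, 20.1 and 40.4 with both oncogenes. Chil4 (0.987) came next, followed by Ly6c2 (0.986), which is among the monocyte and macrophage markers above. Ltf was closest to Pkib and Itgam, each with r = 0.993.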

How the data were processed

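Paired-end 50 bp reads were mapped by the authors with STAR to GRCm38, and Cufflinks gave the level of each gene. Per the submitters' processing notes the versions were STAR 2.7.2a and Cufflinks 2.2.1, with GRCm38.p6. The methods also name the GENCODE annotation, and counts given to DESeq2, which were not used here. Strand and multiple alignments are not given in the sources used here. The deposited values are FPKM, 1 table per library, with no further scaling stated. Groups came from the sample labels, which name no sequencing batch.

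Each table had 55330 lines for 55274 identifiers, and repeated identifiers were summed. Of these, 54882 were in GENCODE M21, 54867 with equal coordinates, and coordinates are given from 1. A gene was tested if 3 or more of the 9 libraries reached 1 FPKM (13493 genes). Each pair of groups was fitted on its 6 libraries as log2(FPKM + 1) with limma 3.58.1 in R 4.3.3 (lmFit, eBayes with a trend), and p-values were Benjamini-Hochberg adjusted over these genes (threshold 0.05). The fit was tested on simulated data. Single genes were also compared by two-sided exact permutation tests. Depth was estimated from the steps between low FPKM values of 3386 genes with 1 transcript longer than 2500 bp, of which 83.9% to 86.7% lay on whole steps. Shared sequence is the percent of 50-base stretches found in transcripts of other genes. Python 3.11.15, numpy 2.4.6, pandas 2.3.3, scipy 1.17.1 and matplotlib 3.10.9 were used. The members, gene lists and tests were chosen with earlier results of these data known. Named genes are the 10 members, Nras, genes of the lists, those with the most similar pattern and Chil4, which shares sequence with Chil3. Cyba and Irf8 were not analysed here. Alternatives were a pseudocount of 0.1 FPKM, no filter, 2 scalings, 3 other models and the loss of each library. The fit without replicate 1 of NUP98-NSD1+NRASG12D was read for the related gene lists after the data had been seen.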

Additional observations from a re-analysis of the deposited data

How the results depend on the processing

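Against NRASG12D, in each of the 13 alternatives 9 or 10 members were called with NUP98-NSD1, and 9 or 10 with both oncogenes. The member lost was Mmp9, in 9 and 5 alternatives, and it changed direction once, to a log2 difference of -0.14 with NUP98-NSD1 under quantile normalization. Of 130 values of single members under the alternatives, 129 kept their direction with NUP98-NSD1, 130 with both oncogenes and 130 in NUP98-NSD1+NRASG12D versus NUP98-NSD1.

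In NUP98-NSD1+NRASG12D versus NUP98-NSD1 the number of members called, 4, depended on the model. It was 0 by limma with no filter on low values, where 38033 genes were tested and 9 members had an unadjusted p under 0.05, 9 with all 9 libraries in 1 fit and 10 with limma array weights, and it was 1 to 9 when a library was left out. It was 3 with a pseudocount of 0.1 FPKM, median-ratio scaling or quantile normalization, where Camp was the member lost. Genes called over the whole table, 1162, became 152, 2251 and 3500 under the first 3 of these settings and 283 to 2509 without a library. For NUP98-NSD1 versus NRASG12D the total of 7036 became 3065 with all 9 libraries in 1 fit. For NUP98-NSD1+NRASG12D versus NRASG12D the total of 5173 ranged from 2941 to 6327 without a library, with 3069, 3159 and 2941 without NRASG12D replicate 1, 2 and 3. Except for the larger number of genes tested without the filter and the loss of a library, the cause was not tested.

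Libraries with the same replicate number share only a number. Their correlations after removal of group means ran from -0.177 to 0.16, and 0, 2 and 1 of 6 libraries were closest to their own number in the 3 comparisons. With the replicate block, 10, 10 and 3 members and 6864, 4531 and 801 genes were called, and Camp was the member lost in the last.

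Depth limits mainly the NRASG12D values, of which many lie at or near the level of 3 fragments. Mmp9 lay above that level in every library, but below 1 FPKM in NRASG12D and NUP98-NSD1.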
